A study of Mus musculus with 8 samples.

Results

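A set of 9 genes that keep naive T cells circulating and at rest was followed in cultured regulatory T cells (Tregs): *Ccr7*, *Il7r*, *S1pr1*, *Klf2*, *Tcf7*, *Lef1*, *Foxo1*, *Satb1* and *Bach2*. They were taken by symbol as a fixed set of known function, and all 9 were found among the 28239 gene symbols counted. Of these 9, 8 were among the 12700 genes with enough reads to test, and *Tcf7* was not. The libraries came from naive CD4+ T cells isolated by negative selection from spleens of WT mice (C57BL/6) and Alox15-/- mice, both female and male and 10 to 12 weeks old. Alox15 encodes 12/15-lipoxygenase, an enzyme that oxidizes polyunsaturated fatty acids, and the Alox15-/- mice lack it in every cell from the germline on. All cells were cultured in the same way, with IL-2, TGF-β at 5 ng/ml and beads carrying antibodies to CD3 and CD28, and were collected on day 2 of Treg differentiation. There were 4 libraries in each group, sequenced by MACE-seq, which reads a tag near the 3′ end of each transcript. No library from cells before culture was analysed here, so the values describe activated cells in both groups, and the change from the naive state cannot be read from them. The WT mice and the Alox15-/- mice came from different suppliers, so the supplier and the genotype cannot be told apart.

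A naive T cell enters a lymph node with the help of CCR7, the receptor for the chemokines CCL19 and CCL21, and leaves it through S1PR1, the receptor for sphingosine-1-phosphate. IL7R, the α-chain of the IL-7 receptor, carries the survival signal that keeps the resting cell alive. The transcription factor FOXO1 drives *Il7r* and *Klf2*, and KLF2 in turn drives *S1pr1*. TCF1 (the product of *Tcf7*) and LEF1 are related high-mobility-group factors of the naive state, SATB1 organizes chromatin in developing and mature T cells, and BACH2 represses effector genes at AP-1 sites. Signals from the T cell receptor and CD28 act through PI3K to move FOXO1 out of the nucleus, and *Klf2*, *S1pr1* and *Il7r* are known to fall in activated T cells.

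Library totals were between 3723151 and 6952596 counts in the libraries labelled Alox15-/- and between 4810125 and 9538962 in the WT libraries. The targeted gene *Alox15* itself went against its label, with 67.2 ± 3.19 CPM (counts scaled to a common library total) in the libraries labelled Alox15-/- and 5.31 ± 3.61 CPM in WT (mean ± SD, n = 4 each). Where its tags lie relative to the disrupted part of the gene was not tested, so they do not check the knockout, and every direction given here rests on the labels. *Alox15* lies on chromosome 11 at 70344152 to 70352031 (GRCm38), 18.1 Mb from *Tcf7* and 28.8 Mb from *Ccr7*. The summed level of 11 T cell markers was 3360 to 3923 CPM in the libraries labelled Alox15-/- and 3694 to 4051 CPM in WT, and 8 Treg markers summed to 1836 to 1984 CPM and 1872 to 2095 CPM. None of these markers was at 0 in all libraries. Markers of other cells were higher in the libraries labelled Alox15-/-: 7 erythroid markers summed to 907 to 3486 CPM against 33.7 to 123 CPM, 9 myeloid markers to 42.7 to 319 CPM against 11.4 to 17.8 CPM, and 10 markers of NK and γδ T cells to 91.1 to 175 CPM against 32.5 to 50.2 CPM. Markers of mast cells and basophils (110 to 331 CPM against 27.0 to 47.6 CPM) and of eosinophils (20.6 to 72.5 CPM against 1.25 to 10.4 CPM) were higher there as well. For each of these 5 lists the exact permutation test gave p = 0.0286, the smallest possible with 4 against 4 libraries (adjusted over 9 lists, 0.0514). The 2 CD8 markers summed to 12.1 to 21.9 CPM against 21.5 to 31.8 CPM in WT, and the 8 B cell markers to 217 to 316 CPM against 213 to 311 CPM. Of the B cell markers, 4 were tested, and *Ms4a1*, which encodes CD20, was lower in the libraries labelled Alox15-/- (log2 fold change -2.64, edgeR adjusted p = 0.00413). The others tested did not pass, with log2 fold changes of 0.11 for *Cd79b*, 0.03 for *Ighm* and -0.22 for *Ighd*. The fall of *Ms4a1* was thus not shared by the list. The part of these cells in the values below was not tested, and in bulk RNA fewer cells expressing a gene and less of its RNA per cell cannot be told apart.

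None of the 8 genes tested differed between the groups after adjustment over all genes (edgeR quasi-likelihood test, Benjamini–Hochberg adjusted p between 0.415 and 0.988). The same test called 158 of all genes tested, or 1.24%. At an unadjusted p under 0.05 there was 1 of the 8, *Il7r*, against 7.84% of all genes. Without the filter on low counts it was 3 of 9 (*Il7r*, *Klf2* and *Lef1*), against 1979 of 28239 genes. This count was 3 without Alox15-/- replicate 1 (*Il7r*, *Lef1* and *Bach2*, against 7.52% of all genes). It was 3 without WT replicate 3 (*Il7r*, *Klf2* and *S1pr1*, against 8.64%) and 2 without WT replicate 4 (*Il7r* and *Lef1*, against 8.39%). No gene of the 8 had groups that did not overlap, against 5.25% of all genes. The fold changes leaned neither way, with 4 positive and 4 negative values and a median log2 fold change (Alox15-/- over WT) of 0.075, against -0.0075 over all genes tested. Without WT replicate 4 the median of the 8 genes was 0.012, again with 4 positive and 4 negative values. With all libraries, their median absolute log2 fold change was 0.167, and that of all genes was 0.125. DESeq2, limma-voom and the edgeR exact test likewise called 0 of the 8. The standard errors were 0.098 to 0.206 on the log2 scale, and the 95% confidence intervals together ran from -0.52 to 0.96.

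**Figure D1:**
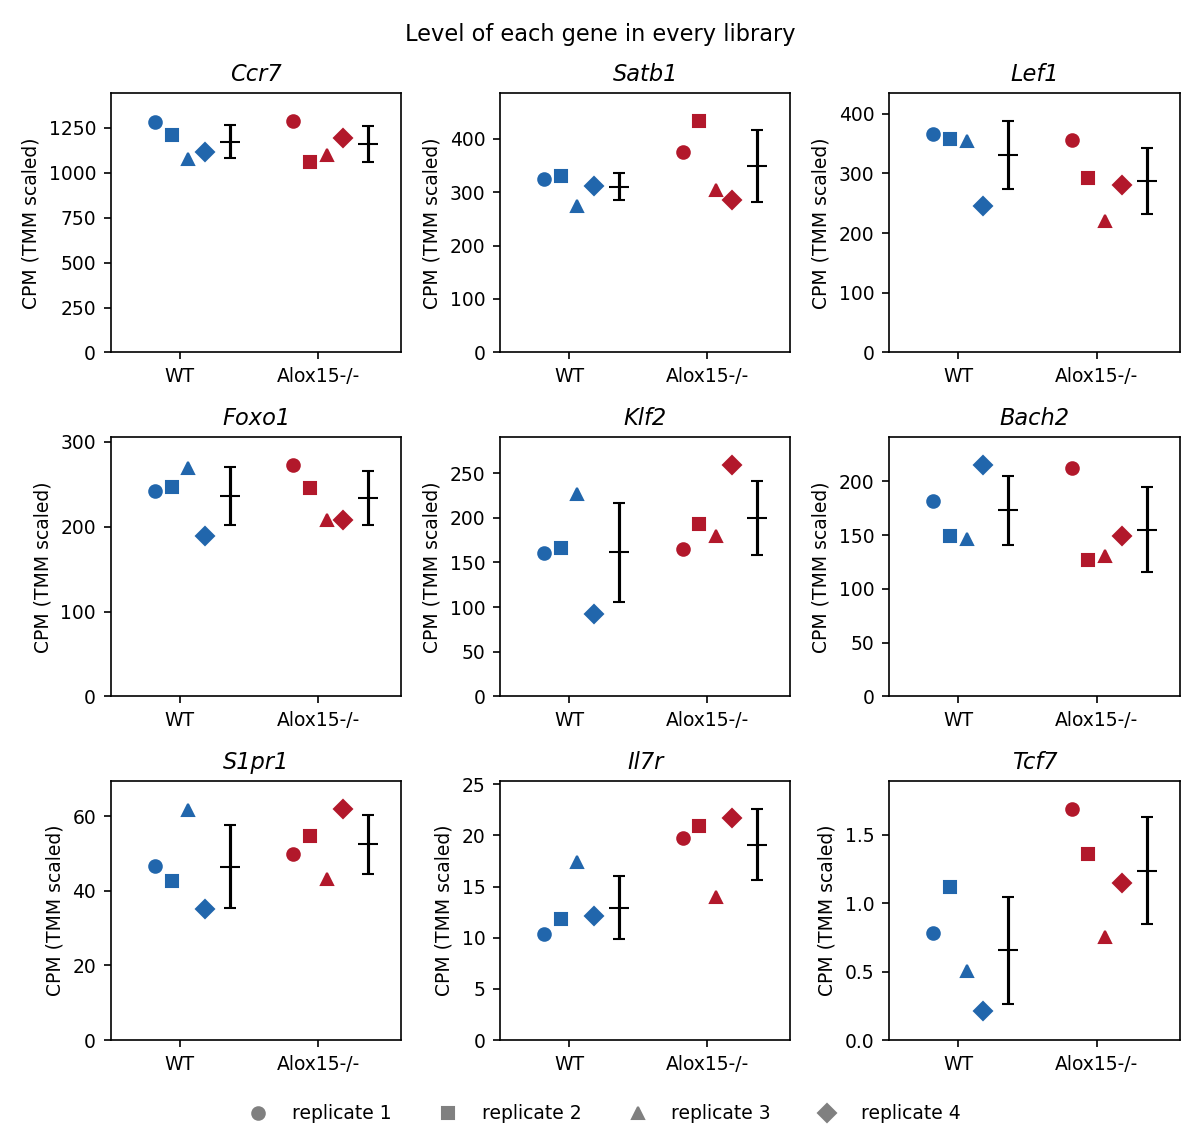
Level of each of the 9 genes in every library, in TMM-scaled CPM (axes from 0), for the 4 WT libraries (blue) and the 4 libraries labelled Alox15-/- (red). Marker shapes give the replicate number, which the main test did not use to pair libraries across groups, and bars give the mean ± SD. The 2 groups overlap for all 9 genes, and the clearest offset is that of *Il7r*, at 19.1 ± 3.50 CPM against 13.0 ± 3.10 CPM.

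The homing receptor *Ccr7* was by far the most abundant of the 9. It lies on chromosome 11 at 99144196 to 99155077 on the minus strand (GRCm38, as all positions of genes given here). Its level was 1287, 1058, 1101 and 1194 CPM in the libraries labelled Alox15-/- and 1281, 1212, 1079 and 1115 CPM in WT. The groups covered the same range, and the means of 1160 ± 102 and 1172 ± 91.9 CPM gave a log2 fold change of -0.01 (SE 0.098, 95% interval -0.22 to 0.19, edgeR adjusted p = 0.988). With 3899 to 10695 counts per library, *Ccr7* had the narrowest interval of the 8 genes. Its sign turned with upper quartile scaling and when single libraries were left out.

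*S1pr1*, the exit receptor (chromosome 3, 115710433 to 115715072, minus strand), was counted far less. It had 49.97, 54.8, 43.1 and 62.0 CPM in the libraries labelled Alox15-/- and 46.7, 42.8, 61.6 and 35.0 CPM in WT. WT replicate 3 was nearly as high as the highest library labelled Alox15-/-, and WT replicate 4 was the lowest of all. The means were 52.5 ± 7.96 and 46.5 ± 11.2 CPM, a log2 fold change of 0.16 (SE 0.161, 95% interval -0.18 to 0.51, edgeR adjusted p = 0.861).

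*Il7r* (chromosome 15, 9505788 to 9530176, minus strand) showed the largest difference of the 8 genes tested, toward higher levels in the libraries labelled Alox15-/-. It had 19.8, 20.9, 14.0 and 21.7 CPM there and 10.3, 11.9, 17.4 and 12.2 CPM in WT, from 58 to 173 counts per library. Of the 4 libraries labelled Alox15-/-, 3 were above every WT library, and replicate 3 of the Alox15-/- group lay below WT replicate 3, so that the groups overlapped. The means of 19.1 ± 3.50 and 13.0 ± 3.10 CPM gave a log2 fold change of 0.54 (SE 0.194, 95% interval 0.13 to 0.96), or 1.45-fold (1.09 to 1.94). The unadjusted p was 0.0140, and over all genes the edgeR Benjamini–Hochberg adjusted p was 0.415, so the difference did not pass the test. The log2 value stayed between 0.45 and 0.79 in 22 alternative fits, with an unadjusted p under 0.05 in each of the 22 and an adjusted p under 0.05 in 0 of them. Without WT replicate 3 it was 0.74, with an adjusted p of 0.0899, the lowest of all. *Il7r* is also expressed by γδ T cells, whose markers, summed with those of NK cells, were higher in the libraries labelled Alox15-/- as given above. The negative selection is meant to remove such cells, and their part in the *Il7r* value was not tested.

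The 250 bases before the RefSeq start of *Il7r* (GRCm38.p6, chr15:9529877-9530126, minus strand) are shown because Ets-family factors are known to bind this promoter in T cells. Capitals mark the matches to the Ets core TTCCTG, searched on both strands, at 123 to 118 and at 47 to 42 bases before the start. The first match is on the opposite strand and reads CAGGAA here. GENCODE places the starts of its 4 *Il7r* transcripts differently: 3 begin downstream of this stretch, the longest coding one at 9529835, and 1 non-coding transcript begins upstream at 9530176, so that the stretch lies within its span.
Il7r promoter: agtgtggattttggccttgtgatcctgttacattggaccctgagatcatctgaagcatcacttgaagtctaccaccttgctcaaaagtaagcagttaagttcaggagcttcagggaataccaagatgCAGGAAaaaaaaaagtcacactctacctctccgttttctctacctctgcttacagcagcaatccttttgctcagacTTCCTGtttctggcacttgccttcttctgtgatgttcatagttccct
The same 6 letters occur in the 250 bases before the start in 25.7% of the 32851 RefSeq mouse promoters, and all motif shares refer to these 250 bases. The match is a description of the letters and does not show binding in these cells.

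*Klf2* (chromosome 8, 72319033 to 72321656, plus strand) had 165, 193, 180 and 259 CPM in the libraries labelled Alox15-/- and 160, 166, 227 and 92.1 CPM in WT. The WT libraries alone spanned 2.46-fold, with WT replicate 3 at the top and WT replicate 4 at the bottom. The means of 199 ± 41.5 and 161 ± 55.1 CPM gave a log2 fold change of 0.30 (SE 0.206, 95% interval -0.14 to 0.74, edgeR adjusted p = 0.782), with the widest standard error among the 8 genes. It was 0.12 without WT replicate 4 and 0.52 without WT replicate 3, and did not pass the test in either case. For *S1pr1*, a target of KLF2, the same 2 fits gave 0.059 and 0.34.

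The 250 bases before the RefSeq start of *Klf2* (GRCm38.p6, chr8:72318812-72319061, plus strand) are shown for contrast with those of *Il7r*. *Klf2* was taken since it had the largest fold between the highest and the lowest WT library of the 8 genes tested. Capitals mark the match to CTA and TAG spaced by any 4 bases, at 118 to 109 bases before the start. This pattern is broader than the palindrome bound by MEF2 factors, in which the bases between are A or T. The last 29 bases lie within the GENCODE transcript, which starts at 72319033.
Klf2 promoter: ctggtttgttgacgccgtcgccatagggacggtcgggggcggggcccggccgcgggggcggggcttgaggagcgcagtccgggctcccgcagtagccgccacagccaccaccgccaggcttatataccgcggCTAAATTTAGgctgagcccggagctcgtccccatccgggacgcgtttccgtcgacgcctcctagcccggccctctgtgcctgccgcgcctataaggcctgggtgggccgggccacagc
This pattern occurs in 3.20% of the promoters. The stretch is rich in G and C, at 71.2%, against 44.0% in the *Il7r* stretch. A match to CCACCC, the core bound by KLF factors, lies 19 to 14 bases before the *Klf2* start, a motif found in 28.1% of promoters. RefSeq promoters were matched for 7 of the 9 genes. The forkhead motif GTAAACA, which 3.17% of all promoters hold, was not found in those of these 7.

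*Foxo1* (chromosome 3, 52268336 to 52353221, plus strand), which acts upstream of *Klf2* and *Il7r*, had nearly equal group means. It had 273, 246, 208 and 208 CPM in the libraries labelled Alox15-/- and 242, 247, 269 and 189 CPM in WT. The groups overlapped throughout, and the means of 234 ± 31.6 and 237 ± 34.2 CPM gave a log2 fold change of -0.02 (SE 0.124, 95% interval -0.29 to 0.24, edgeR adjusted p = 0.982). The sign of this value turned with upper quartile scaling. The last 500 bases of the longest *Foxo1* transcript matched transcripts of 109 other genes (at least 90% identity over at least 100 bases), so its tags may be shared with other genes, whereas those of the other 8 genes matched none.

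*Satb1* (chromosome 17, 51736187 to 51833290, minus strand) had 375, 432, 303 and 285 CPM in the libraries labelled Alox15-/- and 324, 330, 274 and 311 CPM in WT. Replicates 1 and 2 of the Alox15-/- group were above all WT libraries, and replicates 3 and 4 were within the WT range. The means were 349 ± 68.0 and 310 ± 25.1 CPM, a log2 fold change of 0.17 (SE 0.127, 95% interval -0.10 to 0.44, edgeR adjusted p = 0.813). With single libraries left out it lay between 0.052 and 0.26.

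*Bach2* (chromosome 4, 32238804 to 32586108, plus strand) had 212, 126, 131 and 149 CPM in the libraries labelled Alox15-/- and 182, 149, 146 and 215 CPM in WT. Its highest library was WT replicate 4, where *Klf2*, *S1pr1* and *Foxo1* were at their lowest. The means of 155 ± 39.6 and 173 ± 32.4 CPM gave a log2 fold change of -0.16 (SE 0.163, 95% interval -0.51 to 0.19, edgeR adjusted p = 0.869). It was -0.34 without Alox15-/- replicate 1, and single libraries left out moved it between -0.34 and -0.03.

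**Figure D2:**
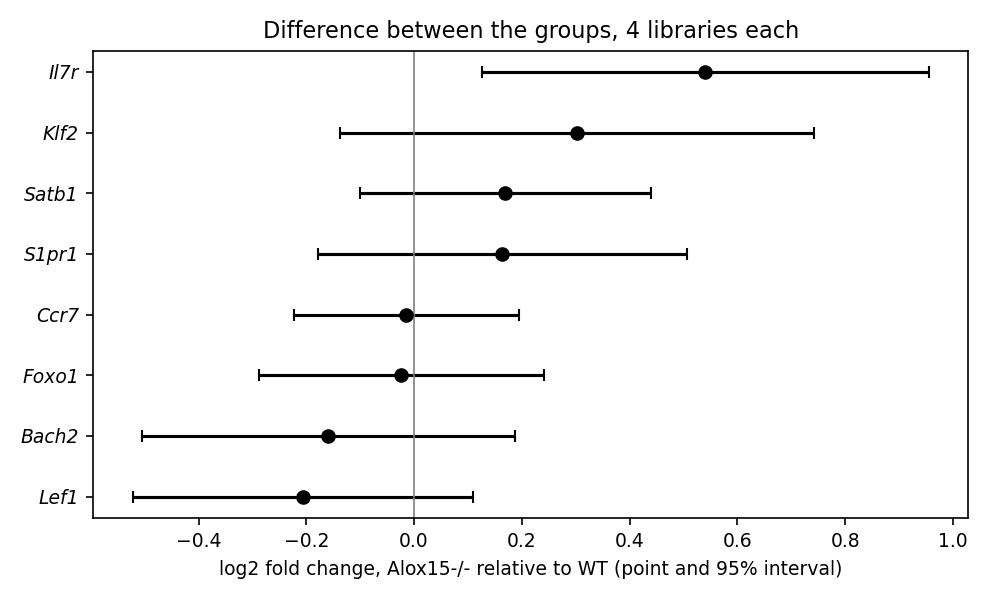
Log2 fold change (libraries labelled Alox15-/- over WT, edgeR) of the 8 genes tested, with bars for the 95% confidence interval and a line at 0. The interval of *Il7r*, 0.13 to 0.96, is the only one of the 8 that leaves out 0, and its adjusted p over all genes was 0.415.

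The pair of high-mobility-group factors, *Tcf7* and *Lef1*, differed widely in their counts. *Lef1* (chromosome 3, 131110471 to 131224356, plus strand) had 356, 292, 220 and 280 CPM in the libraries labelled Alox15-/- and 365, 357, 354 and 245 CPM in WT. WT replicates 1, 2 and 3 lay close together and WT replicate 4 was far below them. The means were 287 ± 55.7 and 330 ± 57.1 CPM, a log2 fold change of -0.21 (SE 0.148, 95% interval -0.52 to 0.11, edgeR adjusted p = 0.803). With single libraries left out it lay between -0.32 and -0.09. *Tcf7* (chromosome 11, 52252371 to 52283014, minus strand) was read only 7, 5, 4 and 8 times in the libraries labelled Alox15-/- and 5, 7, 5 and 1 times in WT. This was 1.24 ± 0.391 and 0.655 ± 0.389 CPM, below the minimum of 2 CPM in 4 libraries that a gene needed to be tested. *Tcf7* made up 0.0855% of the joint counts of *Tcf7* and *Lef1* in WT replicate 4 (exact 95% interval 0.00217 to 0.476%) and 0.473% in replicate 1 of the Alox15-/- group (0.190 to 0.971%), the lowest and the highest of the 8 libraries. These intervals cover counting error only. The log2 ratio of *Tcf7* to *Lef1* was between -10.19 and -7.72.

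The end of *Tcf7* lies inside the span of another annotated gene on the same strand. The lincRNA Gm26551 (chromosome 11, 51949882 to 52269514, minus strand) covers the last 500 bases of *Tcf7*, where MACE-seq reads its tags, although none of its 2432 exon bases, in 3 exons, is shared with the 2625 exon bases of *Tcf7*. Gm26551 was counted 2613, 1989, 2670 and 4070 times in the libraries labelled Alox15-/- and 3300, 3231, 4910 and 2482 times in WT, far above *Tcf7* in every library. Its level of 565 ± 54.7 and 513 ± 11.8 CPM gave a log2 fold change of 0.14 (SE 0.093, 95% interval -0.06 to 0.34, edgeR adjusted p = 0.779), and the groups overlapped. The span of Gm26551 also holds *Ube2b* on the same strand, which has no row among the counts, so the reads counted as Gm26551 cannot be assigned to a gene from these data. The level of TCF1 cannot be judged from the low count of *Tcf7*, and the source of the Gm26551 reads was not tested. No other gene of the 9 had a same-strand neighbour over its last 500 bases. Gm26551 was singled out after the values were seen.

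**Figure D3:**
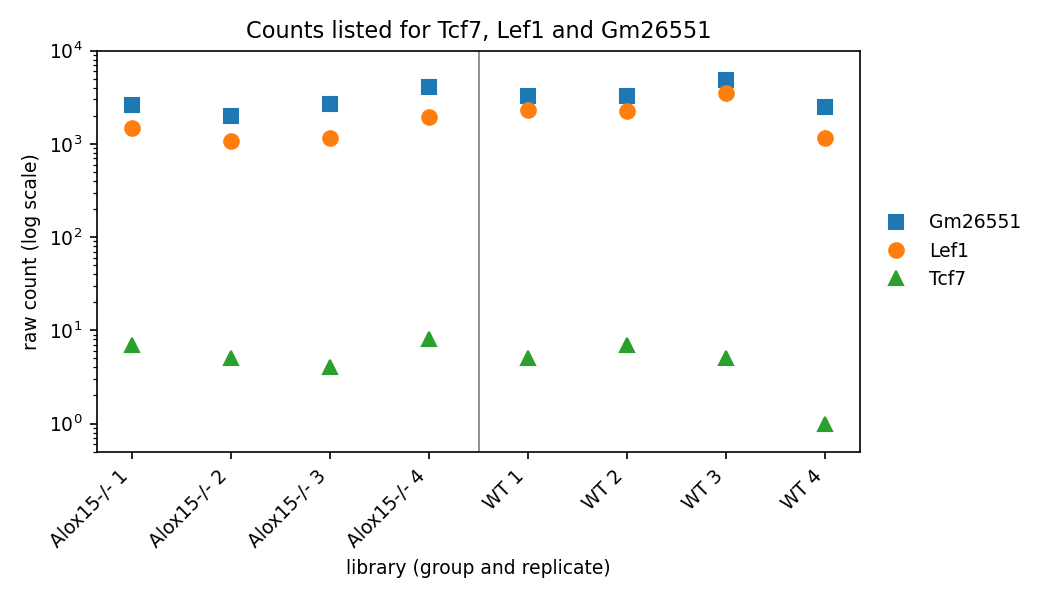
Raw counts (log10 axis) of *Tcf7*, *Lef1* and the overlapping lincRNA Gm26551 in each of the 8 libraries. *Tcf7* stays between 1 and 8 counts, while Gm26551 has 1989 to 4910 and *Lef1* 1075 to 3510.

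By mean level over the 8 libraries, the order was *Ccr7* (1166 CPM), *Satb1* (329), *Lef1* (309), *Foxo1* (235), *Klf2* (180), *Bach2* (164), *S1pr1* (49.5), *Il7r* (16.0) and *Tcf7* (0.947 CPM). A tag count at the 3′ end does not grow with transcript length in the way of whole-transcript reads, so CPM is given first. From *Satb1* down to *Bach2* the ranges of neighbours overlapped, whereas *Ccr7* stood clear above them and *S1pr1*, *Il7r* and *Tcf7* each clear below the next higher gene. Per kb of the longest annotated transcript, *Ccr7* was again first with 589 CPM per kb, followed by *Klf2* with 97.6, *Lef1* with 88.6 and *Satb1* with 52.7 CPM per kb. *Foxo1* (27.1), *Bach2* (18.4), *S1pr1* (16.3), *Il7r* (4.53) and *Tcf7* (0.383 CPM per kb) came after them.

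For each of the 8 genes, the range of CPM within each group was wider than the difference between the group means, and several of the genes varied together. Over the 8 libraries, log2(CPM + 1) of *S1pr1* and *Klf2* had a Pearson r of 0.91 (Spearman rho 0.81) and an r of 0.90 for deviations from the group means. It was 0.86 over the 7 libraries without WT replicate 4, and 0.81 without the 2 libraries farthest from the *S1pr1* median. *Lef1* and *Foxo1* had an r of 0.84 (rho 0.67), and *Il7r* and *S1pr1* an r of 0.75 (rho 0.76). *Klf2* and *Bach2* ran opposite ways, with an r of -0.66 (rho -0.67), which was -0.41 without WT replicate 4. Over all 28 pairs of the 8 genes the median r was 0.22, with a range of -0.66 to 0.91. These are descriptions over 8 libraries that share depth, culture and cell makeup within each library.

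Of the companion genes examined, *Cdkn1b*, which encodes the cell cycle inhibitor p27, had an r of 0.93 with *Klf2* and *Txnip* one of 0.84. These were 0.87 and 0.57 without WT replicate 4. *Irf4*, a factor induced by T cell receptor signals, had an r of -0.93 with *Klf2* (-0.86 without WT replicate 4), and *Egr1*, an immediate early gene, had -0.88 (-0.52 without WT replicate 4). The r with *Klf2* was -0.85 for *Nr4a1* and -0.73 for the early activation marker *Cd69*, and these fell in size to -0.36 and -0.35 without that library. *Bach2* ranked the 8 libraries in the same order as *Nr4a1*, a gene that reports T cell receptor signals (rho 1.0, r 0.83). WT replicate 4 had 419 CPM of *Nr4a1* where the other WT libraries had 131 to 153 CPM, and 219 CPM of *Egr1* against 53.4 to 73.8 CPM. The same library was the lowest of all 8 for *Klf2*, *S1pr1*, *Foxo1*, *Txnip* and *Cdkn1b*. WT replicate 3 had the highest WT level of *Klf2*, *S1pr1*, *Il7r* and *Foxo1*, but the lowest WT level of *Ccr7*, *Satb1* and *Bach2*. It had 194 CPM of the proliferation gene *Mki67* against 51.2 to 75.9 CPM in the other WT libraries. *Mki67* had an r of 0.13 with *Klf2* (rho 0.02), and one of 0.82 for deviations from the group means. These companion genes were chosen after their values were seen.

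**Figure D4:**
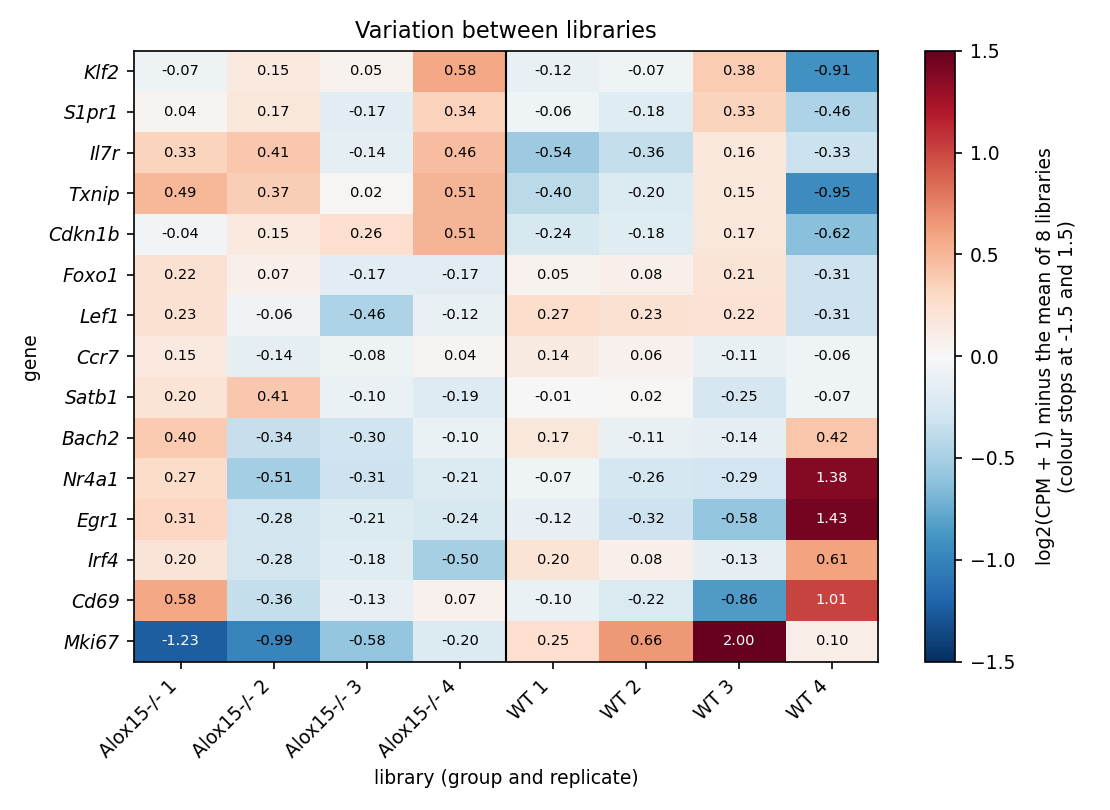
Deviation of log2(CPM + 1) from the mean of the 8 libraries for each gene (rows) in each library (columns), blue below and red above the mean, with the value written in each cell. WT 4 is at -0.91 for *Klf2* and -0.46 for *S1pr1* but at 0.42 for *Bach2* and 1.38 for *Nr4a1*, and WT 3 is at 0.38 for *Klf2*.

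Among the genes tested with a mean of at least 10 CPM (9320 candidates for each gene), the one whose pattern over the 8 libraries was most like each of the 8 was found by Pearson r of log2(CPM + 1). These were *Cebpzos* for *Ccr7* (r 0.98), *Gigyf1* for *Il7r* (0.98), *Traf3ip3* for *S1pr1* (0.98) and *Tsc22d3* for *Klf2* (0.97). *Dcaf10* was most like *Lef1* (0.97), *Rcbtb1* most like *Foxo1* (0.96), *Ikzf5* most like *Satb1* (0.96) and *Csnk1g1* most like *Bach2* (0.98). The highest of 9320 values over 8 libraries is large by selection. *Tsc22d3* encodes GILZ, a leucine zipper protein, and *Ikzf5* an Ikaros-family zinc finger protein.

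The wider set of naive and quiescence genes showed no call either. Of 30 other genes of this kind, 29 were tested and 0 passed (edgeR, Benjamini–Hochberg), with 19 positive and 10 negative log2 fold changes and a median of 0.11 against -0.0075 over all genes. Of these 29 genes, 4 were below an unadjusted p of 0.05, against 7.84% of all genes tested, and all 4 were higher in the libraries labelled Alox15-/-. *Txnip*, which encodes an inhibitor of thioredoxin and of glucose uptake, had 56.5, 51.8, 40.5 and 57.1 CPM there and 29.95, 34.4, 44.4 and 20.1 CPM in WT, a log2 fold change of 0.66 (SE 0.190, edgeR adjusted p = 0.189). *Dapl1* had 33.1, 23.9, 41.8 and 43.3 CPM against 22.4, 24.0, 20.8 and 24.6 CPM, a log2 fold change of 0.65 (SE 0.168, edgeR adjusted p = 0.101). Both were above WT in 3 of 4 libraries labelled Alox15-/-. DESeq2 called both, with adjusted p of 0.0486 for *Txnip* and 0.0269 for *Dapl1*, and called 194 of all 12700 genes tested. *Cdkn1b* (0.42, edgeR adjusted p = 0.458) and *Peli1* (0.29, adjusted p = 0.574) were the others of these 4. With single libraries left out, the list held 3 to 7 genes with an unadjusted p under 0.05, against 6.27% to 8.64% of all genes. The 7 were found without Alox15-/- replicate 3. The lowest value of the list was that of *Id3*, an inhibitor of E proteins, at -0.37 (adjusted p = 0.819), which was 0.09 without WT replicate 4 (adjusted p = 0.937). Without that library the list had 22 positive and 7 negative values and a median of 0.13.

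In the pathway around the IL-7 receptor, 0 of 10 tested genes of 12 listed passed (edgeR, Benjamini–Hochberg), and the median log2 fold change was -0.01. *Crlf2*, which pairs with IL7R in the receptor for TSLP, was at 0.35 (SE 0.121, edgeR adjusted p = 0.362), and every library labelled Alox15-/- was above every WT library. *Cish*, a target of STAT5 that dampens cytokine signals, was at -0.30 (SE 0.097, edgeR adjusted p = 0.300), with groups that did not overlap in the other direction. *Socs1*, of the same family of suppressors, was at 0.29 (adjusted p = 0.458). Thus 2 of 10 genes had groups that did not overlap, against 5.25% of all genes, and these 3 of 10 had an unadjusted p under 0.05, against 7.84%. *Il2rg*, the common γ-chain that IL7R needs to signal, has no row among the counts. It lies on chromosome X (101264378 to 101268255) within Gm20489, an annotated gene on the same strand that covers 728 of the 2387 exon bases of *Il2rg* with its exons and was counted 1365 to 2955 times per library. As with *Tcf7*, the reads of the overlapping genes cannot be told apart, and Gm20489 was singled out after its values were seen.

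Among 16 genes of CCR7 and lymph node entry, 13 were tested and 0 passed (edgeR, Benjamini–Hochberg), with a median of -0.07. *Itgal* and *Itgb2*, which encode the α and β chains of the integrin LFA-1, were at -0.32 (SE 0.100, edgeR adjusted p = 0.259) and -0.27 (SE 0.090, adjusted p = 0.316), and for both every library labelled Alox15-/- was below every WT library. These 2 of 13 genes were also the ones with an unadjusted p under 0.05, against 5.25% of all genes with groups that did not overlap and 7.84% below that p. The number below that p was 4 without WT replicate 3, against 8.64% of all genes. It was also 4 with upper quartile scaling and with the replicate block, against 973 and 901 of 12700 genes. *Gpr183*, a receptor for oxysterols, had the lowest value, -0.36 (adjusted p = 0.853), which was 0.21 without WT replicate 4 (adjusted p = 0.838). Without that library the median of the list was -0.0065.

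No gene of the remaining lists around these genes passed the test. Of 12 genes of the sphingosine-1-phosphate pathway, 9 were tested and 0 passed, with a median of -0.10, a highest value of 0.07 for *S1pr4* and a lowest of -0.83 for *S1pr3* (SE 0.402, edgeR adjusted p = 0.655). All 13 genes of FOXO regulation were tested and 0 passed, with a median of -0.09, and a highest value of 0.36 for *Skp2*. Of 17 symbols listed for partners and targets of TCF1 and LEF1, in which *Aes* and *Tle5* name the same gene, 14 were tested and 0 passed. *Axin2*, a β-catenin target, was at 0.32 and *Tcf7l1* at -0.38. Of 13 partners and targets of BACH2, 11 were tested and 0 passed, with *Hmox1*, which encodes heme oxygenase and is repressed by BACH proteins, at 0.35 and *Maff* at -0.32. By the edgeR quasi-likelihood test with all 8 libraries, these 4 lists held 0 genes with an unadjusted p under 0.05, against 7.84% of all genes tested, and with single libraries left out each list held 0 or 1. The sphingosine-1-phosphate list held 1 also by DESeq2, by the edgeR exact test, with the replicate block and without the filter. Without WT replicate 4 the median was -0.01 for the sphingosine-1-phosphate list and -0.08 for FOXO regulation. It was -0.10 for the TCF1 and LEF1 list and 0.09 for the BACH2 list.

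Genes of T cell activation gave the only call among the pathway lists. Of 20 listed, 19 were tested, and *Mki67* alone passed, against 1.24% of all genes. With 16 negative and 3 positive log2 fold changes the median was -0.13, against 51.8% negative values and a median of -0.0075 over all genes. Without WT replicate 4, which was high for *Nr4a1*, *Egr1*, *Cd69* and *Irf4* of this list, there were 9 negative and 10 positive values and the median was 0.04. *Mki67*, which encodes the proliferation marker Ki-67, had 19.8, 23.6, 31.8 and 41.4 CPM in the libraries labelled Alox15-/- and 57.1, 75.9, 194 and 51.2 CPM in WT. Every library labelled Alox15-/- was below every WT library, with a log2 fold change of -1.69 (SE 0.359, edgeR adjusted p = 0.0270). WT replicate 3 was far above the rest, and without it the value was -1.04 (adjusted p = 0.0191). The call was held in 15 of 22 alternatives, and was lost with DESeq2, limma-voom and robust quasi-likelihood fitting and without replicate 1, 2 or 3 of the Alox15-/- group. *Irf4* was at -0.38 (adjusted p = 0.560), and the 3 positive values were led by *Batf*.

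**Figure D5:**
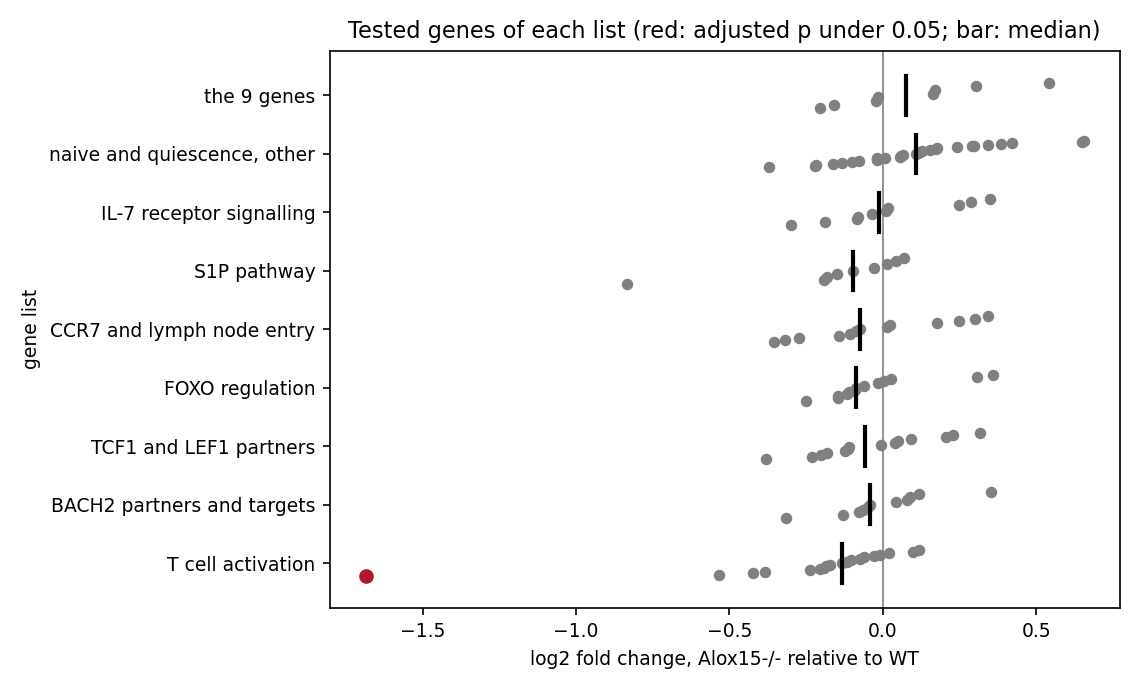
Log2 fold change (libraries labelled Alox15-/- over WT, edgeR) of every tested gene among the 9 genes and in each of the 8 pathway lists, with a black bar at the list's median, red for adjusted p under 0.05 and grey otherwise. The medians lie between -0.13 and 0.11, and *Mki67*, at -1.69, is the only red point.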

How the data were processed

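The authors deposited a table of raw counts per gene symbol for 8 MACE-seq libraries, 4 WT and 4 Alox15-/-, with no normalization. Per the labels, reads were cleaned and trimmed before counting, and the submitters' processing notes name Bowtie, edgeR and GRCm38 with no role or order. The study's methods name a MACE-seq kit and the labels a small RNA kit. The counting rule, its use of strand and the treatment of molecular identifiers are not given in the sources used here. Of 28239 symbols, 26 had the form of a date and 2 were duplicated, and all were kept as listed.

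Groups were taken from the labels. A gene was tested when it reached 2 CPM in 4 or more libraries, the minimum of the study's methods, and 12700 genes (45.0%) did. Libraries were scaled by TMM and compared with the quasi-likelihood test of edgeR 4.0.16 (R 4.3.3; two-sided, group as the only term, Benjamini–Hochberg adjustment over all genes tested, threshold 0.05). The biological coefficient of variation was 14.5%. CPM values are TMM-scaled, and log2 levels use a pseudocount of 1. Library totals were 3723151 to 9538962 counts, the spread between libraries exceeded counting error, and exact intervals cover counting error only. Summed markers were compared by exact permutation tests. No 2 libraries of the same group agreed within sampling noise (chi-square per degree of freedom 4.60 to 17.4). The labels do not tie samples to animals. The study gives 4 mice for the Alox15-/- group, and the number of WT mice is not given in the sources used here, so p-values measure the spread between these samples, which may in part be technical. The fits were tested on simulated data.

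The genes, the pathway lists and the marker lists were chosen with earlier results of these data known. Named were the 9 genes, Alox15, genes of the pathway lists that passed the threshold, the largest rise and fall of each list, and the tested gene (mean of at least 10 CPM) most like each of the 8 tested. Other genes named were chosen after their values were seen, and 2 genes that this rule covers are not reported here. Positions came from GENCODE on GRCm38, promoters from RefSeq (GRCm38.p6), and the 3′ ends were compared with blastn 2.17.0. Alternatives covered DESeq2 1.42.0, limma-voom (limma 3.58.1), scaling, filters, the replicate block and libraries left out.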

Additional observations from a re-analysis of the deposited data

Results flagged for a closer look

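A single library lay far from the other 3 of its group in 9 of the 110 group and gene or marker-list combinations examined (8.18%), by Dixon's test at the 95% level. Chance passes this test in about 1 of 20 groups, but some of these genes were included after their values were seen, so the share is not set against that rate. Of the 9, 4 were in WT replicate 4: *Lef1* was at 245 CPM there against 354 to 365 CPM in the other WT libraries, *Nr4a1* at 419 against 131 to 153 CPM, *Egr1* at 219 against 53.4 to 73.8 CPM, and *Id3* at 64.0 against 23.5 to 27.1 CPM. In WT replicate 3, Gm26551 was at 495 CPM against 517 to 521 CPM, a small gap in a narrow group. In WT replicate 2, the summed CD8 T cell markers were at 21.5 CPM against 30.1 to 31.8 CPM. In the Alox15-/- group, *Egr1* was at 99.7 CPM in replicate 1 against 66.2 to 69.4 CPM, and *Socs1* at 119 CPM in replicate 4 against 140 to 143 CPM. *Skp2* was at 4.46 CPM in replicate 4 against 4.34 to 4.35 CPM. That gap is also small, as *Skp2* had only 16 to 31 counts in the libraries of this group. Without WT replicate 4, the log2 fold change of *Lef1* was -0.32, with an edgeR adjusted p of 0.488, and without Alox15-/- replicate 3 it was -0.09, with an adjusted p of 0.952.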

How the results depend on the processing

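None of the 9 genes was called in any of the 22 alternatives, in which *Il7r*, *S1pr1*, *Klf2*, *Satb1* and *Lef1* kept their direction. *Ccr7* turned positive with upper quartile scaling (0.013), without Alox15-/- replicates 2 and 3 together (0.084, chosen after seeing the data) and when single libraries were left out (-0.066 to 0.031). *Foxo1* did so with upper quartile scaling (0.0041), without those 2 libraries (0.020) and without single libraries (-0.11 to 0.050), and *Bach2* only without those 2 (0.065). *Tcf7* could be fitted only without a filter (log2 fold change 0.83, edgeR adjusted p = 0.768). Groups that did not overlap numbered 0, and 1 (*Il7r*) without Alox15-/- replicate 3 or WT replicate 3, a range of 0 to 1, against 8.37% and 9.12% of all genes in those 2 settings. The count over all genes was 388 without a filter, 100 with at least 10 counts in every library, 60 without Alox15-/- replicates 2 and 3, and 86 to 172 with single libraries left out. The naive and quiescence list gave 2 calls without a filter, against 388 of 28239 genes, and 2 with DESeq2, against 194 of 12700 (*Dapl1* and *Txnip* in both). It gave 1 with the exact test (*Dapl1*), against 217 of 12700 genes. With single libraries left out it gave 0 to 1. These were *Dapl1* without Alox15-/- replicate 2, against 86 of 12560 genes, and *Txnip* without WT replicate 3, against 147 of 12575. The activation list gave 4 without a filter (*Mki67*, *Irf4*, *Egr1*, *Nr4a1*), against the same 388 of 28239 genes. It gave 0 with DESeq2, limma-voom, robust quasi-likelihood or without Alox15-/- replicates 2 and 3, and 0 to 1 with single libraries left out. The cause of these changes was not tested. The study's methods name no pairing of libraries by replicate number. Deviations from the group means in libraries of the same number had correlations of 0.067, 0.179, -0.20 and -0.02. These values cannot show whether such libraries were handled together. The replicate block gave 146 calls and changed no call among the 9 genes. *Tcf7* (1 to 8 counts) was too shallow to test, and *Il7r* had the lowest counts of the 8 genes tested (58 to 173).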
